A study of Homo sapiens with 6 samples.

Results

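The EGF-repeat O-glycosyltransferases are the enzymes that build O-linked sugars on the small cysteine-rich folds of Notch receptors and related proteins, and GXYLT2, the gene targeted in the study, is 1 of them. The 10 genes GXYLT2, GXYLT1, XXYLT1, POGLUT1, POGLUT2, POGLUT3, POFUT1, POFUT2, B3GLCT and EOGT were taken by symbol from a table of 62703 genes, and all 10 were found once each and passed the filter on low counts. Their transcripts were measured by mRNA sequencing of HGC-27 cells, a human gastric cancer line kept in medium with 10% fetal bovine serum. The 3 shGXYLT2 libraries came from HGC-27 cells that stably express a short hairpin RNA against GXYLT2, labelled as GXYLT2 knockdown, and the 3 shControl libraries from HGC-27 cells with a control hairpin, whose genotype label is WT. No source used here gives the hairpin sequence, or says whether the stable cells are 1 clone and the libraries separate cultures. The p-values therefore cover no more than the spread between libraries, which may be technical.

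Each EGF repeat can carry several kinds of O-linked sugar, each started by its own enzyme in the endoplasmic reticulum. POGLUT1 adds O-linked glucose, which GXYLT1 or GXYLT2 extends with a first xylose and XXYLT1 with a second. POGLUT2 and POGLUT3 add O-glucose at another position of the repeat, POFUT1 adds O-fucose, and EOGT adds O-linked N-acetylglucosamine. POFUT2 and B3GLCT carry out the matching O-fucose and glucose steps on thrombospondin type 1 repeats, so these members act on a different fold. In Notch receptors these sugars are known to affect folding, trafficking to the cell surface and ligand binding.

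Library totals were 22188073 to 24898425 estimated counts in shGXYLT2 and 17291138 to 22540099 in shControl. Levels are given as CPM, counts set relative to the library total after scaling with TMM factors, which correct that total for composition. A gene was called changed at a Benjamini-Hochberg adjusted p below 0.05 in edgeR's quasi-likelihood test, fitted to 15693 genes, of which 12.2% were called. Those were 1907 genes, and leaving out shControl replicate 1, 2 or 3 gave 990, 1152 or 960. Of the epithelial markers, EPCAM, KRT18 and KRT19 lay below 0.24 CPM in all 6 libraries and CDH1 and KRT8 at 1.23 to 3.28 CPM, and 5 of 8 gastric lineage markers (TFF1, TFF2, MUC5AC, GKN1 and PGC) were at 0, so most markers of the labelled cell type were absent or low; of the others, CLDN18 lay below 0.33 CPM, GATA6 averaged 8.30 CPM in shGXYLT2 and 7.50 CPM in shControl, and MUC6 rose to 4.22 CPM in shGXYLT2, against 2.05 CPM in shControl (edgeR adjusted p = 0.0029). Summed levels were 3.77 to 4.71 CPM in shGXYLT2 and 4.31 to 5.39 CPM in shControl for the 5 epithelial markers, and 12.2 to 13.8 and 9.60 to 9.94 CPM for the gastric ones. Several stromal genes were abundant and changed in both directions, COL1A1 and ACTA2 falling to 541.5 and 101 CPM in shGXYLT2, against 824 and 127 CPM in shControl, and DCN and LUM rising to 250.4 and 240 CPM, against 186 and 180.1 CPM (edgeR adjusted p of at most 0.0049). The other stromal markers were lower and did not pass. PDGFRA averaged 30.3 CPM in shGXYLT2 and 26.2 CPM in shControl (edgeR adjusted p = 0.0904), and PDGFRB 0.674 and 1.28 CPM (adjusted p = 0.0806). Summed levels of 6 stromal markers were 1111 to 1204 CPM in shGXYLT2 and 1313 to 1367 CPM in shControl, those of 6 leukocyte markers 1.08 to 1.84 and 1.72 to 2.17 CPM, and those of 4 endothelial markers 0.0898 to 0.24 and 0.044 to 0.176 CPM; their part in the results was not tested. CD3E, PECAM1, CDH5 and KDR were at 0 in all 6 libraries.

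The 7-base word GACTCAT was found in transcripts of 5 members. It was searched because an earlier analysis of these same fold changes had picked it out as common in the 3′ UTRs of fallen genes, so its link with lower levels is no independent result here. Each stretch is written 5′ to 3′ on the transcript strand as in the GENCODE release 29 transcripts, with the word in capitals, and shows where the word sits in GXYLT2, GXYLT1, XXYLT1, POGLUT3 and POGLUT2.
GXYLT2, coding sequence: gccagtggcctGACTCATatacaaagaag
GXYLT1, first copy in the 3′ UTR: agacttctgttGACTCATactctcaagag
GXYLT1, second copy in the 3′ UTR: cagcaattaaaGACTCATgagaaaaacag
XXYLT1, 3′ UTR: gggaccaggaaGACTCATtccaaaaagcc
POGLUT3, 3′ UTR: tcaggatttagGACTCATagcctgaaagc
POGLUT2, coding sequence: gtttatatcaaGACTCATggtgaacatgt

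On GRCh38 these stretches lie at chr3:72922208-72922236 on the plus strand for GXYLT2, at chr12:42087482-42087510 and chr12:42083130-42083158 on the minus strand for GXYLT1, at chr3:195068884-195068912 on the minus strand for XXYLT1, at chr11:108473460-108473488 on the minus strand for POGLUT3 and at chr13:102793390-102793418 on the minus strand for POGLUT2. The word starts at base 484 of the GXYLT2 coding sequence, and at bases 287 and 4639 of the GXYLT1 3′ UTR, which is 5941 bases long. POGLUT1, POFUT1, POFUT2, B3GLCT and EOGT held the word in none of their annotated transcripts. On the opposite strand, ATGAGTC was present in the longest 3′ UTR of none of the 10 members. Of 12558 tested genes with a 3′ UTR of at least 100 bases, 9.09% held GACTCAT and 8.14% held ATGAGTC. At least 2 copies of GACTCAT, as in GXYLT1, were present in 0.987% of all these genes, and in 4.0% of the 1976 genes whose 3′ UTR reached 4000 bases, of which 24.2% held at least 1 copy.

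Both enzymes of the step that adds the first xylose fell at the transcript level, while the 8 other members did not pass the test. Of the 10 genes 2 fell, GXYLT2 and GXYLT1, and 0 rose, against 6.84% and 5.31% of all tested genes that fell and rose. GXYLT2 is the target of the hairpin, so its fall was sought by the design. Among the untargeted members GXYLT1 alone fell, so the count is no result about the family. The median log2 fold change of the 10 genes was 0.005, against -0.006 over all tested genes. In bulk RNA such as this, fewer cells with a transcript and less of it per cell cannot be told apart.

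GXYLT2 encodes glucoside xylosyltransferase 2 and lies at chr3:72888073-72998138 on the plus strand of GRCh38. It was at 5.27, 6.27 and 5.34 CPM in shGXYLT2 replicates 1 to 3, from 132, 154 and 119 counts. In shControl replicates 1 to 3 it was at 20.7, 22.9 and 20.2 CPM, from 360, 390 and 460 counts. The groups stood well apart, and even the highest knockdown library lay far below the lowest control library.
The mean was 5.63 ± 0.556 CPM in shGXYLT2 and 21.3 ± 1.40 CPM in shControl (SD, n = 3 each), a log2 fold change of -1.91 (95% interval -2.14 to -1.68; edgeR adjusted p = 6.3e-10). A lower log2 fold change was found in 8 of the 15693 tested genes.

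GXYLT1, glucoside xylosyltransferase 1, is the paralog that carries out the same step, and lies at chr12:42081845-42144879 on the minus strand. Its level was 34.8, 40.1 and 31.4 CPM in shGXYLT2 replicates 1 to 3, from 871, 984 and 698 counts. It was 71.7, 70.9 and 77.1 CPM in shControl replicates 1 to 3, from 1248, 1211 and 1753 counts. Again no library of one group reached the range of the other.
The mean was 35.4 ± 4.39 CPM in shGXYLT2 and 73.3 ± 3.35 CPM in shControl (SD, n = 3 each), a log2 fold change of -1.05 (95% interval -1.22 to -0.88; edgeR adjusted p = 3.7e-08). The log2 fold change was at or below that of GXYLT1 in 117 tested genes, GXYLT1 included. It ran from -1.15 to -0.97 over 13 alternative fits, all past the threshold.

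The coding sequences of GXYLT1 (1323 bases) and GXYLT2 (1332 bases) were identical at 65.0% of 1264 aligned bases. The longest run of bases shared exactly by their annotated transcripts was 21 bases, and it was the only shared stretch of that length, so no longer exact match can belong to both. It is shown because it is where a 21-base sequence would match both transcripts.
GXYLT1 and GXYLT2, shared run: taccatgacgataagcaacca

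The run starts at base 1096 of the GXYLT2 coding sequence (chr3:72967666-72967686) and at base 1108 of that of GXYLT1 (chr12:42097475-42097495), and it does not hold GACTCAT. Whether the hairpin matches it was not tested, since the hairpin sequence is not given. The files list 6 GXYLT1 pseudogenes, of which 5 had 0 counts in every library and GXYLT1P4 had 2 counts in 1 library. GXYLT2 overlaps the exons of PPP4R2 by 62 bases on the same strand. PPP4R2 had 1561 to 2301 counts in shGXYLT2 and 1464 to 2216 counts in shControl, not scaled to the library totals. Reads in those 62 bases could have gone to either gene.

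**Figure D1:**
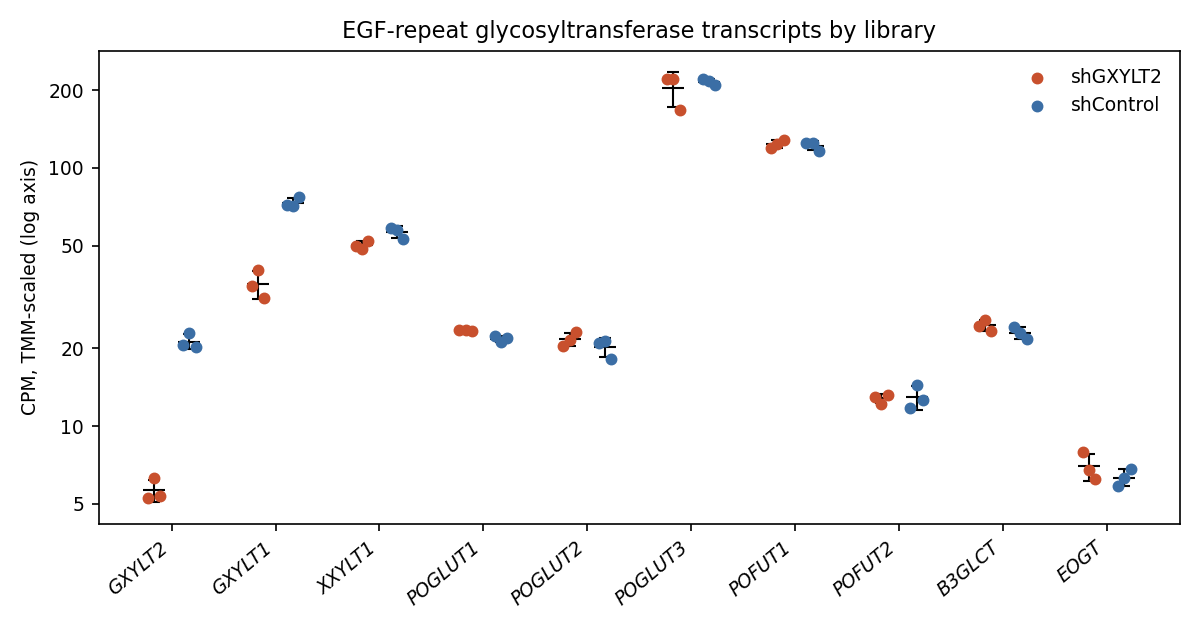
TMM-scaled CPM (log axis) of the 10 genes, with each of the 3 shGXYLT2 libraries left of the 3 shControl libraries; points are libraries and bars are the mean with the SD. GXYLT2 at 5.27 to 6.27 CPM and GXYLT1 at 31.4 to 40.1 CPM lie below their controls, while most other genes overlap between groups.

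The summed transcript level for the first xylose step was taken per kilobase of gene length, which allows the genes to be added. Its direction follows from the fall of both genes, so it is given without a test. The sum of GXYLT1 and GXYLT2 was 6.25, 7.26 and 5.82 CPM per kilobase in shGXYLT2 replicates 1 to 3, against 15.9, 16.4 and 16.5 CPM per kilobase in shControl replicates 1 to 3. The mean was 6.44 ± 0.742 in shGXYLT2 and 16.3 ± 0.327 in shControl (SD, n = 3 each), a change of -60.4%.

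GXYLT2 made up a smaller share of the pair after knockdown. Per kilobase its share was 25.7%, 26.4% and 28.1% in shGXYLT2 replicates 1 to 3, against 39.8%, 42.4% and 37.5% in shControl replicates 1 to 3. GXYLT1 was thus the more abundant transcript in every library, and the shift in shares measures how much further GXYLT2 fell than GXYLT1. Its direction follows from the larger fall of the hairpin target, so the test of the share adds no independent result. The mean share was 26.7% ± 1.20 in shGXYLT2 and 39.9% ± 2.46 in shControl (SD, n = 3 each; two-sided exact permutation p = 0.1, and no lower p is possible with these group sizes).

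The pair's level also moved relative to the enzymes before and after it. Per kilobase, GXYLT1 and GXYLT2 together were at 0.87 to 1.08 times the level of POGLUT1, which makes their acceptor, in shGXYLT2 libraries, and at 2.51 to 2.74 times in shControl libraries. Relative to XXYLT1, which extends their product, they were at 0.302 to 0.406 times in shGXYLT2 and at 0.734 to 0.843 times in shControl. These ratios of transcripts were chosen after the levels were seen and are given without a test.

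**Figure D2:**
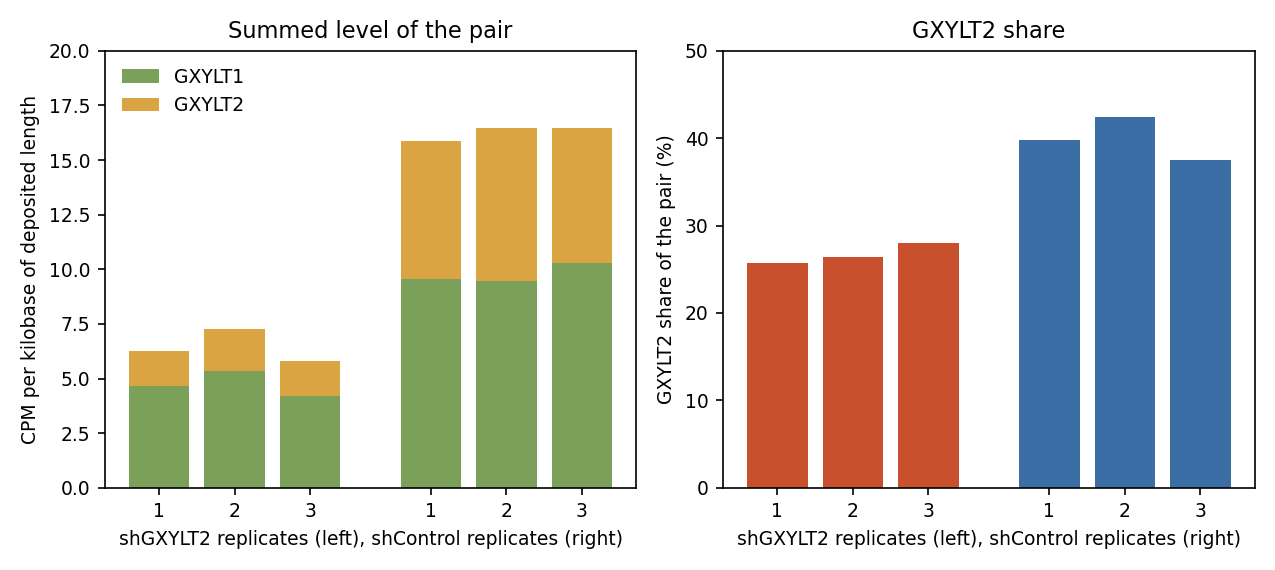
Left, stacked CPM per kilobase of GXYLT1 and GXYLT2 in each library; right, the GXYLT2 share of that sum in percent, with shGXYLT2 replicates left of shControl replicates in both. The sum is 5.82 to 7.26 in shGXYLT2 and 15.9 to 16.5 in shControl, and the GXYLT2 share 25.7% to 28.1% and 37.5% to 42.4%.

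XXYLT1, xyloside xylosyltransferase 1, adds the second xylose and lies at chr3:195068279-195271167 on the minus strand. Its level was 49.8, 48.6 and 52.3 CPM in shGXYLT2 replicates 1 to 3 and 58.7, 57.4 and 53.0 CPM in shControl replicates 1 to 3. The groups were adjacent without overlap, with shGXYLT2 replicate 3 just below shControl replicate 3.
The log2 fold change was -0.17 (95% interval -0.31 to -0.02), with an unadjusted p of 0.0259 and an edgeR adjusted p of 0.13. Without shGXYLT2 replicate 3 it was -0.19 and passed, with an edgeR adjusted p of 0.0462 (0.0462 to 0.432 over the 13 alternatives).

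POGLUT1, protein O-glucosyltransferase 1, starts the O-glucose chain that the xylosyltransferases extend, and lies at chr3:119468938-119494708 on the plus strand. It was at 23.5, 23.6 and 23.4 CPM in shGXYLT2 replicates 1 to 3, and at 22.2, 21.1 and 21.9 CPM in shControl replicates 1 to 3. The shGXYLT2 libraries lay within 0.2 CPM of each other and above all controls. The log2 fold change was 0.11 (95% interval -0.06 to 0.28; edgeR adjusted p = 0.42), so a rise of more than 0.28 or a fall of more than 0.06 on the log2 scale lies outside the interval.

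POGLUT2 and POGLUT3, which carry retention signals of the endoplasmic reticulum and were formerly named KDELC1 and KDELC2, did not pass either. POGLUT2 (chr13:102784281-102799007, minus strand) was at 20.5, 21.5 and 23.1 CPM in shGXYLT2 and at 21.04, 21.4 and 18.2 CPM in shControl. POGLUT3 (chr11:108472105-108498432, minus strand) was at 222, 221 and 167 CPM in shGXYLT2 and at 221, 217 and 211 CPM in shControl. For POGLUT3, shGXYLT2 replicate 3 stood below the 5 other libraries, which lay close together.
The log2 fold change of POGLUT2 was 0.11 (95% interval -0.09 to 0.29) and that of POGLUT3 was -0.09 (95% interval -0.28 to 0.11), at edgeR adjusted p of 0.52 and 0.62. Without shGXYLT2 replicate 3 the direction of POGLUT3 turned, at a log2 fold change of 0.04 (edgeR adjusted p = 0.63; 0.356 to 0.792 over the alternatives).

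POFUT1, protein O-fucosyltransferase 1, starts the O-fucose chain on which fringe enzymes act, and lies at chr20:32207880-32238667 on the plus strand. It was at 120, 124 and 129 CPM in shGXYLT2 replicates 1 to 3, and at 125, 125 and 116 CPM in shControl replicates 1 to 3. The ranges overlapped. Its log2 fold change of 0.03 (95% interval -0.10 to 0.15; edgeR adjusted p = 0.83) was the most narrowly bounded among the 10 genes, and it turned to -0.005 without shControl replicate 3.

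The thrombospondin-repeat enzymes also overlapped between groups. POFUT2, protein O-fucosyltransferase 2 (chr21:45263928-45287898, minus strand), was at 12.99, 12.2 and 13.2 CPM in shGXYLT2, against 11.8, 14.5 and 12.6 CPM in shControl. B3GLCT, the glucosyltransferase that extends that fucose (chr13:31199936-31332276, plus strand), was at 24.3, 25.9 and 23.4 CPM in shGXYLT2, against 24.3, 22.9 and 21.7 CPM in shControl. The POFUT2 difference had no stable sign, since its log2 fold change of -0.02 (95% interval -0.23 to 0.20; edgeR adjusted p = 0.94) turned positive in 4 of 13 alternatives, with upper-quartile factors, without a filter, and without shGXYLT2 replicate 2 or shControl replicate 2, where it reached at most 0.07. That of B3GLCT was 0.10 (95% interval -0.07 to 0.27; edgeR adjusted p = 0.50). LINC00334, an RNA on the strand opposite POFUT2, had at most 6.2 counts in any library.

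EOGT, which adds N-acetylglucosamine to EGF repeats, lies at chr3:68975214-69013961 on the minus strand and had the lowest CPM of the 10 genes in shControl. It was at 7.91, 6.76 and 6.24 CPM in shGXYLT2 replicates 1 to 3, from 198, 166 and 139 counts, and at 5.86, 6.27 and 6.82 CPM in shControl replicates 1 to 3, from 102, 107 and 155 counts. The groups overlapped. With so few counts its interval was the widest of the untargeted members, at a log2 fold change of 0.14 (95% interval -0.14 to 0.42; edgeR adjusted p = 0.57). The antisense RNA EOGT-DT overlaps its exons by 21 bases, where its reads cannot be told from those of EOGT unless the counting used strand. EOGT-DT had 6.01 to 15.2 counts in shGXYLT2 and 3.0 to 7.34 counts in shControl. These are few and not scaled to the library totals, which differ between groups.

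Over the 8 members other than GXYLT2 and GXYLT1, the edgeR test called 0, with 1 at an unadjusted p below 0.05, and DESeq2 and limma-voom also called 0; edgeR called 1, XXYLT1, without shGXYLT2 replicate 3. Their log2 fold changes ran from -0.17 to 0.14 with a median of 0.06, and their 95% intervals reached from -0.31 at the lowest to 0.42 at the highest. Groups did not overlap in 4 of the 10 genes, the target GXYLT2, GXYLT1 and XXYLT1 downward and POGLUT1 upward, against 30.4% of all tested genes, 15.8% downward and 14.6% upward.

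**Figure D3:**
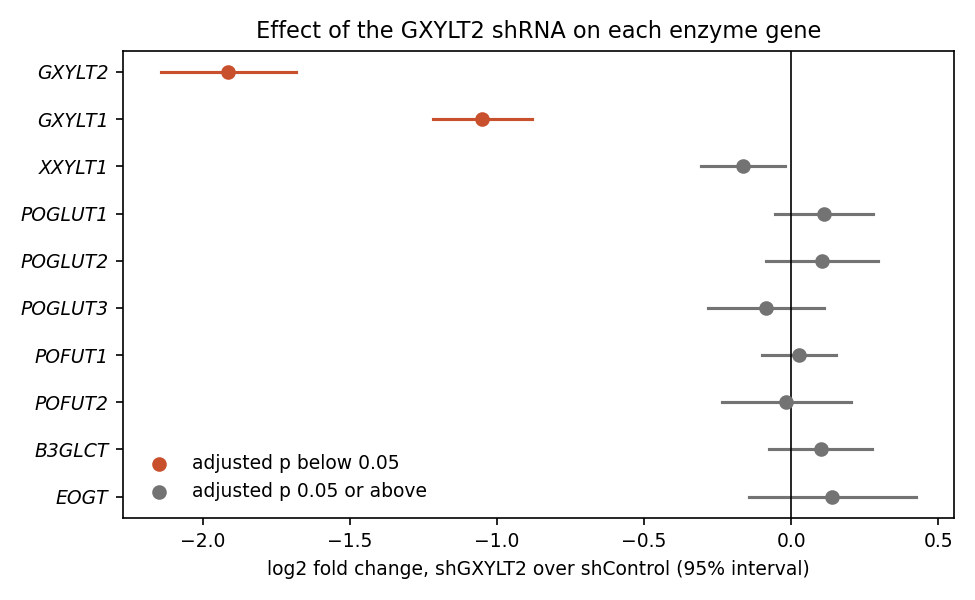
Log2 fold change of shGXYLT2 over shControl for each gene, with its 95% interval from the edgeR fit across all genes; coloured points passed the adjusted threshold. GXYLT2 at -1.91 and GXYLT1 at -1.05 lie apart from the others, which range from -0.17 for XXYLT1 to 0.14 for EOGT.

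Set beside the sequences above, the 3 members with GACTCAT in the 3′ UTR had log2 fold changes of -1.05 for GXYLT1, with 2 copies, -0.17 for XXYLT1 and -0.09 for POGLUT3, with 1 copy each. The 6 untargeted members without it in the 3′ UTR ran from -0.02 for POFUT2 to 0.14 for EOGT, POGLUT2 with its coding copy among them at 0.11. Among these, GXYLT1 alone passed the test, and POGLUT3, POFUT2 and POFUT1 changed sign under some alternatives, so these are values side by side and no relation was tested.

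Per kilobase of the deposited gene length, POGLUT3 was the most abundant of the 10 transcripts in both groups, at 47.9 ± 7.39 CPM per kilobase in shGXYLT2 and 50.8 ± 1.22 in shControl (SD, n = 3 each). POFUT1 was next at 23.8 and 23.4 CPM per kilobase, followed by XXYLT1 at 18.5 and 20.8. In shControl the order went on with POGLUT2 at 9.97 ± 0.846 and GXYLT1 at 9.78 ± 0.448, which overlapped, then GXYLT2 at 6.49 ± 0.426 and POGLUT1 at 6.20 ± 0.171, which also overlapped, then B3GLCT at 5.44, and POFUT2 at 4.53 and EOGT at 3.99, which overlapped too. In shGXYLT2, GXYLT1 at 4.73 CPM per kilobase stood at place 7 of the order, against place 5 in shControl, with a range overlapping those of POFUT2 and EOGT, and GXYLT2 at 1.72 stood at place 10, against place 6 in shControl.
The lower end of the order depends on the length taken. The deposited length of EOGT, 1584 bases, equals its coding sequence, while its longest annotated transcript has 4731 bases, and with longest transcripts EOGT was at 1.47 CPM per kilobase in shGXYLT2 and 1.33 in shControl, below GXYLT2 at 1.73 and 6.52. POFUT2, with a deposited length of 2861 bases against 4825 in its longest transcript, was then at 2.65 CPM per kilobase in shGXYLT2 and 2.69 in shControl, so its overlap and that of EOGT with GXYLT1 in shGXYLT2 holds for the deposited length only. POGLUT2 and GXYLT1 changed places in shControl with those lengths, and the first 3 places stayed as they were.

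Some genes outside the family followed nearly the course of GXYLT1 over the libraries, while those nearest to GXYLT2 fell less than it. Likeness to a member was sought among the 9833 tested genes whose mean log2 CPM reached 3. It was measured as the root-mean-square distance, over the 6 libraries, between log2 CPM profiles set to the shControl mean. The 5 genes nearest to GXYLT1 were STARD4, GFPT1, TWF1, RAB8B and MME, at distances of 0.0719 to 0.0848 log2 units, and the 5 nearest to GXYLT2 were CIAO2A, DCK, NEK7, LRATD2 and DKK1, at 0.247 to 0.491. The profile of GXYLT1 thus had close neighbours, while that of GXYLT2 lay further from any other gene of that level. The 5 genes nearest to GXYLT2 had log2 fold changes of -1.61 to -1.22, against -1.91 for GXYLT2. Since profiles are set to the shControl mean, the distance includes this difference in fold change. All 10 had lower levels in shGXYLT2, since the distance selects them for it. Of the 5 near GXYLT1, 4 held GACTCAT in the 3′ UTR (not MME), as did 3 of the 5 near GXYLT2 (not CIAO2A or DKK1), which is given as a description of genes chosen by their fall. The 3′ UTRs of GFPT1, RAB8B and LRATD2 are longer than 4000 bases, where the word was present in 24.2% of tested genes.

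The enzymes that extend O-fucose, the fringe genes and the transferases after them, did not pass the test. Of 6 genes 5 were tested, with 0 called by edgeR, DESeq2 or limma-voom and 0 at an unadjusted p below 0.05, against 12.2% of all tested genes called by edgeR, and the median log2 fold change was -0.25. B4GALT1, a galactosyltransferase, averaged 137.5 CPM in shGXYLT2 and 133 CPM in shControl (edgeR adjusted p = 0.69), and the sialyltransferase ST3GAL4 43.2 and 44.6 CPM (adjusted p = 0.78). The fringe genes, named after their values were seen, were low: RFNG averaged 6.78 and 8.08 CPM in shGXYLT2 and shControl (log2 fold change -0.25, 95% interval -0.51 to 0.01, edgeR adjusted p = 0.21) and LFNG 2.84 and 3.46 CPM (adjusted p = 0.39), while MFNG lay below 0.3 CPM and was not tested.

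Genes that supply the sugar donors moved in both directions. Of 18 genes 17 were tested, of which 1 rose and 2 fell (17.6%, against 12.2% of all tested genes), with a median log2 fold change of -0.06. GFPT1, the rate-limiting enzyme of the hexosamine pathway to UDP-N-acetylglucosamine, fell to 88.8 ± 6.21 CPM in shGXYLT2, against 176 ± 1.74 CPM in shControl (SD, n = 3 each), at a log2 fold change of -0.99 and an edgeR adjusted p of 2.3e-09. It was also the second nearest gene to GXYLT1. Over this and the 4 other related lists, 5 of 60 genes searched held GACTCAT in the 3′ UTR, against 9.09% of 12558 tested genes. Of the 60 genes 9 fell, against 6.84% of all tested genes. Of the 5 genes with the word 3 fell, GFPT1, F12 and CCN1. The word was picked from these same fold changes, so this split is a description only. The others, named after their values were seen, did not pass, SLC35C2 with 2 copies at a log2 fold change of -0.16 and ADAMTS12 with 1 copy at -0.12.
UGDH, which makes the UDP-glucuronate from which UDP-xylose is formed, fell to 66.0 CPM in shGXYLT2, against 77.6 CPM in shControl (edgeR adjusted p = 0.0229). FPGT, a fucose salvage enzyme, rose to 24.1 CPM, against 19.9 CPM (edgeR adjusted p = 0.0334). Both calls were near the threshold and held in 8 and 6 of 13 alternatives, with adjusted p of up to 0.102 and 0.137. UGDH was not called without shGXYLT2 replicate 1 or any 1 shControl replicate, and FPGT not without shGXYLT2 replicate 1 or 2 or any 1 shControl replicate, nor with DESeq2 (adjusted p = 0.0564). Their log2 fold changes moved little in the fits that lost the call, from -0.24 to -0.22 for UGDH, against -0.23 with all libraries, and from 0.25 to 0.30 for FPGT, against 0.28. The count of 3 called genes was 1 without shGXYLT2 replicate 1 or any 1 shControl replicate. Named after their values were seen, UXS1, which makes UDP-xylose, averaged 38.2 and 34.1 CPM in shGXYLT2 and shControl (adjusted p = 0.15), and its Golgi transporter SLC35B4 71.8 and 64.9 CPM (adjusted p = 0.16; 0.0341 without shGXYLT2 replicate 3).

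Among xylosyltransferases of other pathways 1 gene rose. Of 5 genes 4 were tested, of which 1 rose and 0 fell (25%, against 12.2% of all tested genes), with a median log2 fold change of 0.01. XYLT1, which starts the glycosaminoglycan chains of proteoglycans, was at 45.9 to 48.1 CPM in shGXYLT2 and 33.9 to 37.0 CPM in shControl, and rose to a mean of 47.0 ± 1.09 CPM against 35.8 ± 1.67 CPM (SD, n = 3 each), at a log2 fold change of 0.39 and an edgeR adjusted p of 9.3e-04. The gene not tested, LARGE2, named after its value was seen, was at 0 in all libraries.

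Transcripts of proteins that carry EGF-repeat sugars changed in both directions. Of 26 genes 14 were tested, of which 2 rose and 3 fell (35.7%, against 12.2% of all tested genes), with a median log2 fold change of 0.006. LTBP1, a matrix protein that binds latent TGF-beta, rose to 441.2 ± 6.09 CPM in shGXYLT2, against 318.5 ± 6.05 CPM in shControl (SD, n = 3 each), at a log2 fold change of 0.47 and an edgeR adjusted p of 5.8e-06. The receptor NOTCH2 rose to 242 CPM in shGXYLT2, against 199 CPM in shControl (log2 fold change 0.28, adjusted p = 0.0017). NOTCH1 and NOTCH3, named after their values were seen, did not pass (log2 fold changes 0.02 and 0.16, edgeR adjusted p = 0.91 and 0.16). NOTCH3 passed without shGXYLT2 replicate 2 (edgeR adjusted p = 0.0302). The ligands JAG1 and JAG2, named likewise, did not pass (edgeR adjusted p = 0.33 and 0.56). The fibrillins fell: FBN2 to 119 CPM in shGXYLT2, against 172 CPM in shControl (adjusted p = 4.9e-06, log2 fold change -0.52), and FBN1 to 6.46 CPM, against 8.82 CPM (adjusted p = 0.0242). The coagulation factor gene F12 fell to 6.81 CPM, against 10.6 CPM (edgeR adjusted p = 0.0035).
The FBN1 call was lost without shGXYLT2 replicate 1 or shControl replicates 1 or 3, at adjusted p of 0.075, 0.119 and 0.127. Fibrillins and LTBP1 are known substrates of POGLUT2 and POGLUT3, whose own transcripts did not pass the test. Of the 12 genes not tested for low counts, F7, F9, DLK1 and TDGF1, also named after their values were seen, were at 0 in every library.

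Transcripts of thrombospondin-repeat proteins, which are the substrates of POFUT2 and B3GLCT, included several falls. Of 24 genes 20 were tested, of which 1 rose and 4 fell (25%, against 12.2% of all tested genes), with a median log2 fold change of -0.07. The gene that rose, ADGRB3, was low and entered the test through its shGXYLT2 libraries. CCN3, a matricellular protein, fell to 42.0 ± 1.39 CPM in shGXYLT2, against 82.0 ± 4.17 CPM in shControl (SD, n = 3 each), at a log2 fold change of -0.96 and an edgeR adjusted p of 8.9e-09. THBS1, thrombospondin 1, fell to 37.7 CPM, against 60.9 CPM (log2 fold change -0.69, adjusted p = 1.4e-06), and CCN1 to 51.2 CPM, against 72.3 CPM (log2 fold change -0.50, adjusted p = 4.4e-05).
CCN2, named for completeness after its value was seen, fell to 15.7 CPM, against 19.5 CPM (edgeR adjusted p = 0.0379), and the adhesion receptor ADGRB3 rose to 0.938 CPM, against 0.393 CPM (adjusted p = 0.045). ADGRB3 was low, at 0.611 to 1.12 CPM in shGXYLT2 and 0.308 to 0.527 CPM in shControl. It passed the filter on low counts through its shGXYLT2 libraries, the group where it is high, so its rise is no firm result. The CCN2 call held in 4 of 13 alternatives. It was lost with upper-quartile factors (adjusted p = 0.0502), without a filter (0.0535), with DESeq2 (0.0591), without shGXYLT2 replicate 2 or 3 (0.0947 and 0.0545) and without shControl replicate 1, 2 or 3 (0.164, 0.146 and 0.052). The ADGRB3 call held in 4 of the 11 alternatives that gave an adjusted p, and was lost with limma-voom (0.0663), without shGXYLT2 replicate 1 or 3 (0.142 and 0.113) and without shControl replicate 1, 2 or 3 (0.148, 0.0656 and 0.197). The count of 5 was 3 without shGXYLT2 replicate 3 or any 1 shControl replicate.

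**Figure D4:**
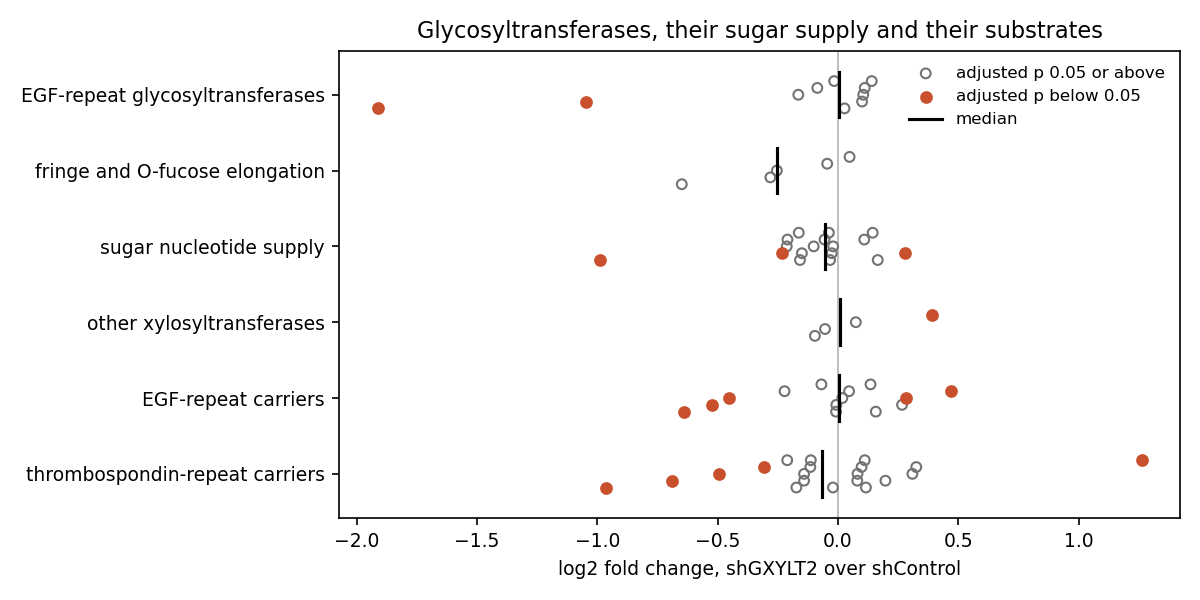
Log2 fold change of shGXYLT2 over shControl for every tested gene of the family and of 5 related lists; filled points passed the adjusted threshold in edgeR, open points did not, and vertical bars are medians. The 2 filled points of the family are GXYLT2 and GXYLT1, and the list medians lie between -0.25 and 0.01.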

How the data were processed

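The data are mRNA-seq libraries of HGC-27 cells, 3 shGXYLT2 and 3 shControl, grouped and numbered by sample title. Per the labels' protocols, TRIzol was used for RNA and an Illumina stranded mRNA ligation kit for the libraries. The submitters' processing notes name GRCh38.p13, HISAT2, fastp and StringTie; their versions, the counting step and its use of strand are given by no source used here. Values deposited by the authors are raw estimated counts of each gene; 12.3% were not whole, and all were rounded. The deposited gene length has no stated definition and served only for levels per kilobase.

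The main test was that of edgeR 4.0.16 (R 4.3.3): filterByExpr by group, TMM, robust quasi-likelihood fit with group as the only term, two-sided tests, Benjamini-Hochberg adjustment over 15693 genes. The 95% intervals and SEs come from that fit. Per-library shares were compared by exact permutation. Intervals cover the spread between libraries. On counts simulated for shGXYLT2 over shControl, with 15476 genes tested, 96 of 100 genes changed 4-fold and 83 of 100 changed 2-fold were recovered. Of the unchanged genes 8 were called. Both groups were simulated with the same spread per gene and no smaller change was simulated. The simulation therefore does not bear on the small differences of the members that did not pass. No libraries were copies: chi-square per degree of freedom was at least 1.93 between any pair. It was 1.93 to 3.79 within shControl, 5.42 to 9.94 within shGXYLT2 and 7.96 to 17 between groups. The shGXYLT2 libraries were thus less alike by this measure, which was not set to a common library total.

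Annotation and transcript sequences came from GENCODE release 29 on GRCh38, the build of the files; 3′ UTRs are the longest per gene, and coding identity used a global alignment in Biopython 1.88. Alternatives were other size factors, filters, DESeq2 1.42.0, limma-voom (limma 3.58.1), a replicate block, and leaving out each library. Same-numbered libraries did not deviate together (r of 0.005, -0.043 and -0.023), so the numbers were not taken as pairs. These are title numbers; the deposited columns carry others, so that same-numbered titles need not share a column number. The members, lists and the 7-base word were chosen with earlier results of these data known. Named genes are the 10 members, their copies and overlapping genes, up to 3 risen and 3 fallen genes per list by adjusted p or else its 2 most abundant, and the 5 nearest profiles of GXYLT1 and GXYLT2. Genes named outside this rule are marked as such where they appear, apart from the cell type markers.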

Additional observations from a re-analysis of the deposited data

How the results depend on the processing

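GXYLT2 and GXYLT1 passed the threshold in all 13 alternative fits, with log2 fold changes of -2.001 to -1.86 and -1.15 to -0.97, and the count of called members was 2 in 12 of them and 3 without shGXYLT2 replicate 3, where XXYLT1 passed. The GXYLT2 share of the pair kept its direction with other gene lengths and with each library left out; library scaling cancels in it. Signs turned only for members that never passed: POFUT1 (-0.005 without shControl replicate 3; -0.005 to 0.055 with 1 library left out), POFUT2 (0.006 with upper-quartile factors, 0.001 without a filter, 0.014 and 0.066 without shGXYLT2 replicate 2 and shControl replicate 2; -0.077 to 0.066) and POGLUT3 (0.039 without shGXYLT2 replicate 3; -0.153 to 0.039). Leaving out 1 library gave 960 to 2347 called genes in all, 1 to 4 in the sugar supply list, 4 to 6 among the EGF-repeat carriers and 3 to 4 in the thrombospondin-repeat list. With the replicate block, whose numbers were not found to pair the libraries, 1471 genes were called in all, 1 in the sugar supply list and 3 in the thrombospondin-repeat list, where DESeq2 also gave 3; the block ended the calls of UGDH, FPGT, ADGRB3 and CCN2 (adjusted p of 0.0563, 0.069, 0.0667 and 0.0531). The cause of these changes, the smaller number of libraries included, was not tested. Counts of 102 to 198 per library limit EOGT, and levels per kilobase rest on a length whose definition is not given.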
